A study of Mus musculus with 237 samples.

Results

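Wild-type E18.5 cap mesenchyme cells that carried Six2 mRNA were divided by whether they also carried Cited1 mRNA. Cells were selected on measured values: those with Six2 at 1 RPKM or more were kept, and Cited1 at 1 RPKM or more made a cell Cited1-positive. Of the 237 cells of the series, 62 met the Six2 rule within this group, of which 39 were Cited1-positive and 23 Cited1-negative. RPKM, a read measure normalised by gene length and by each cell's mapped reads, is comparable between genes of different length. The series profiled single cells of the embryonic mouse kidney, of mixed strain, after digestion, flow sorting and capture in a Fluidigm C1 device, and relates Pax2 to the boundary between nephron and interstitial lineages. The 74 wild-type cells sampled at E18.5, the embryonic day, carry the label of cap mesenchyme and its derivatives, and all of them share 1 title date and 1 pool number. The comparisons outside this group drew on 18 wild-type cap cells of E13.5, 71 wild-type interstitial cells of E18.5 whose titles carry FoxD1_GCE, and 44 cap cells of E18.5 labelled Pax2 mutant. The surface marker or reporter used for sorting is not given in the sources used here.

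The cap mesenchyme surrounds the tips of the ureteric bud and is the pool from which every nephron forms. Six2, a homeodomain transcription factor, keeps these progenitors from differentiating early, and Cited1, a transcriptional co-regulator that binds the acetyltransferases CBP and p300, is known as a marker of the least committed cells of the cap. Cells lose Cited1 before Six2 as they move towards the pretubular aggregate, where Wnt signalling drives them to become epithelium. The progenitors also divide, and replication of their DNA needs the hexameric MCM helicase (Mcm2 to Mcm7), which is loaded onto origins before S phase with the help of Cdc6 and activated with the GINS complex.

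No label names the embryo of a cell, so the 62 cells count as 1 sample. All SDs are between cells, and no test was made. A difference below is the mean log2(RPKM + 1) of Cited1-positive cells minus that of Cited1-negative cells, and "higher" or "lower" describes these cells only. Because a dropout and a gene that is not transcribed give the same 0, absence of Cited1 cannot be told apart from failure to capture its mRNA.

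Cited1 (gene ID 12705, mm10 chromosome X, 102247440 to 102252163) ranged from 1.24 to 442 RPKM in Cited1-positive cells, with a median of 72.7 RPKM. It was at 10 RPKM or more in 35 of these 39 cells and at 100 RPKM or more in 15. Of the 23 Cited1-negative cells, 20 had Cited1 at 0 and 3 had values above 0, of 0.439, 0.920 and 0.929 RPKM. The cells just inside the threshold had 1.24, 4.4 and 6.89 RPKM, so few cells lay near it. Six2 (gene ID 20472, chromosome 17, 85684268 to 85688254) ranged from 3.01 to 310 RPKM with a median of 96.1 in Cited1-positive cells. In Cited1-negative cells it ranged from 2.53 to 596 RPKM with a median of 65.5. The Six2 ranges overlapped almost completely. Within the 39 Cited1-positive cells the levels of the 2 genes showed next to no rank relation (Spearman's rho 0.03, across cells that share 1 pool number). The lowest Six2 values kept were 2.53, 2.75 and 3.01 RPKM, and the highest left out were 0.299 RPKM and 0. Of the 12 cap cells under the Six2 threshold, 1 had Cited1 at 1 RPKM or more.

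**Figure D1:**
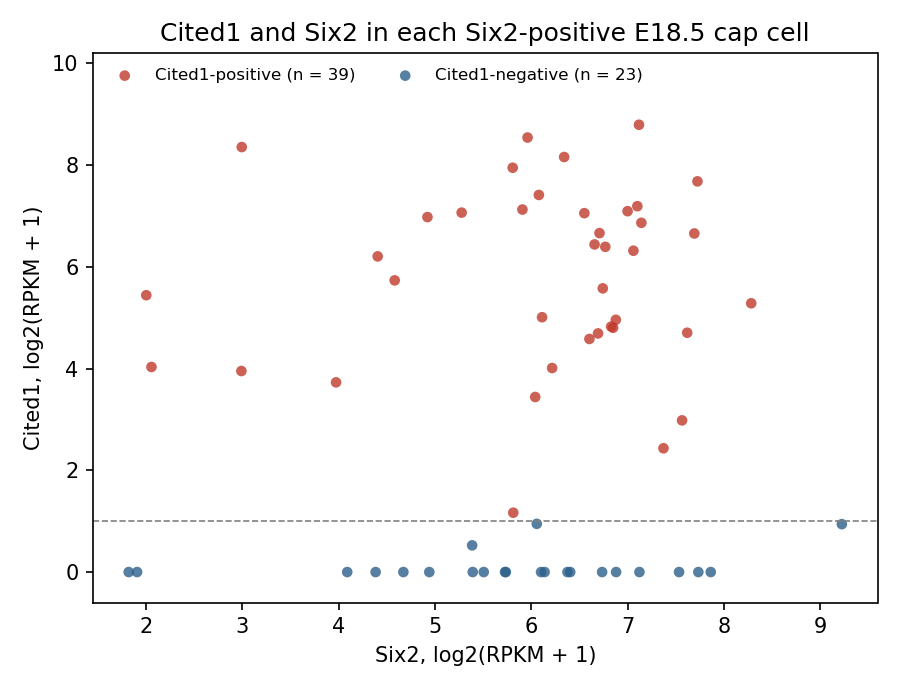
Cited1 against Six2 as log2(RPKM + 1) in the 62 Six2-positive E18.5 wild-type cap cells, 1 point per cell, with the dashed line at 1 RPKM of Cited1. The 39 Cited1-positive cells overlap in Six2 with the 23 Cited1-negative cells, of which 20 lie at 0.

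Cited1-positive cells had more genes detected, and this bears on every comparison that follows. Counting a gene as detected at 1 RPKM, the number per cell ran from 3059 through a median of 5529 to 7215 in Cited1-positive cells (mean 5682 ± 934, SD, n = 39). In Cited1-negative cells it ran from 2745 through 4774 to 6643 (mean 4880 ± 1037, SD, n = 23). The medians differed by 755 genes while the ranges overlapped, and 7 of 39 against 12 of 23 cells had fewer than 5000 genes. Within the Cited1-positive cells the level of Cited1 did not follow the number of genes closely (Spearman's rho -0.14). A mitochondrial ATP synthase pseudogene, LOC100503946, took 0.477% to 53.5% of the RPKM sum in Cited1-positive cells (median 1.28%) and 0.725% to 76.0% in Cited1-negative cells (median 2.31%). It was at 20000 RPKM or more in 5 of 39 and 8 of 23 cells. Without these 13 cells the medians were 5748.5 and 5545 genes, a difference of 203.5. The part of gene number or of the pseudogene in the gene differences was not tested. Each difference below was also computed with the number of genes detected as a second term in a least-squares fit over the cells. A further version used the 21 and 10 cells of a shared range (4658 to 6062 genes). In that range the imbalance was reversed, with medians of 5400 genes in Cited1-positive and 5544.5 in Cited1-negative cells.

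**Figure D2:**
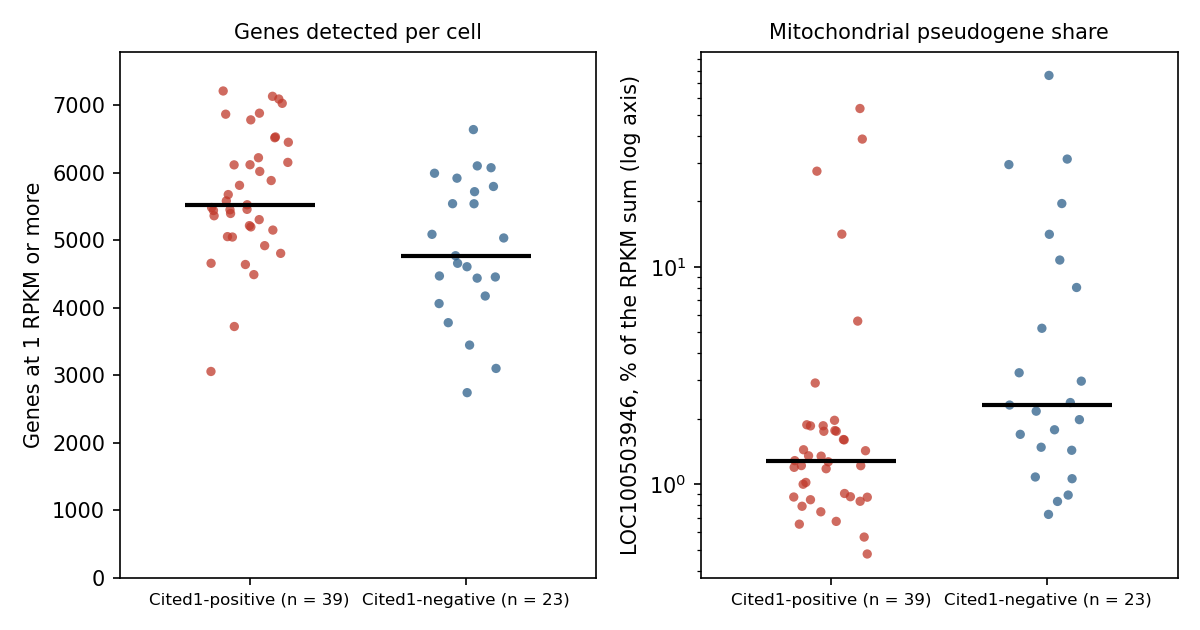
Left, genes detected (1 RPKM) in each cell. Right, share of the RPKM sum taken by LOC100503946 in percent on a log axis. Points are cells and lines are medians. Cited1-positive cells have a median of 5529 genes and Cited1-negative cells of 4774, and the pseudogene share has medians of 1.28% and 2.31%.

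The sets had similar shares of cells with Xist, Y-linked and other-lineage transcripts. Xist was detected in the absence of Y-linked transcripts in 35 of 39 and 21 of 23 cells, and together with them in 3 and 2 cells. Pecam1, Kdr, Ptprc, Hba-a1 and Ret were listed at 0 in all 62 cells. Col1a1, Col3a1 or Pdgfra was at 1 RPKM or more in 5 of 39 and 3 of 23 cells.

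Across genes, the sets differed mostly in 1 direction before gene number was taken into account. Of 11185 genes detected in 10% of either set's cells, 1313 (11.7%) exceeded 1 log2 unit in Cited1-positive cells and 49 (0.438%) were lower by the same amount. The median difference over all these genes was 0.27, and 72.5% of them lay above 0. With the number of genes as a second term the median was 0.02, 427 genes (3.82%) were higher and 336 (3%) lower. Of the 1313 genes, 394 passed in both, as did 44 of the 49. Within the shared range the median of the same 11185 genes was also 0.02, with 979 higher and 896 lower. The excess of higher genes was small in both of these comparisons. The number of genes detected is counted from the same values, so a median near 0 is partly built into them. Genes detected in under 25% of the cells had a median difference of 0.13, and those detected in 50% to 75% of the cells had 0.48.

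**Figure D3:**
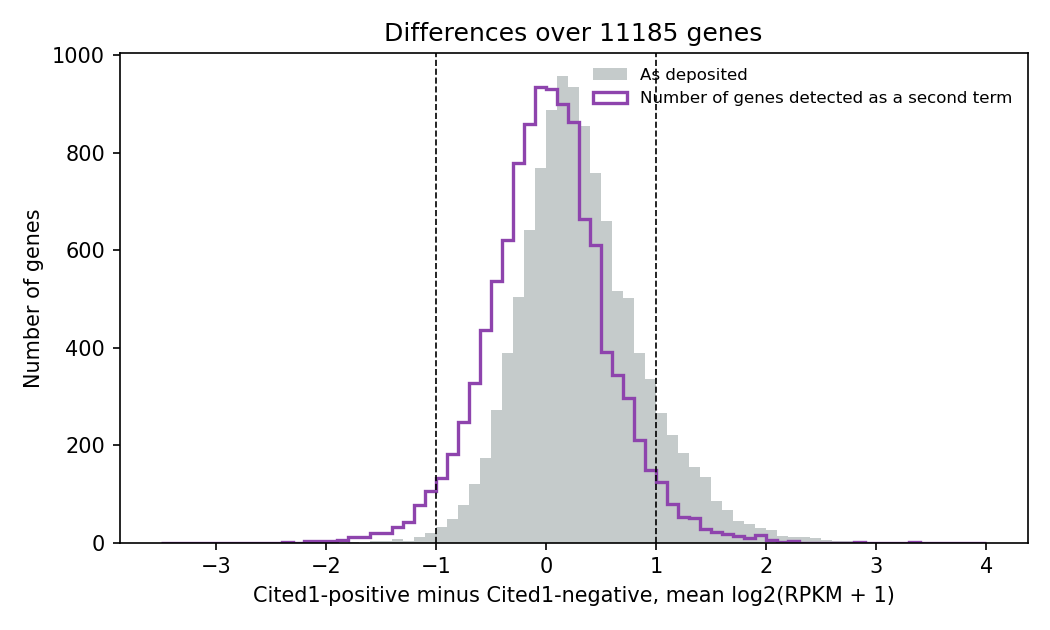
Histogram of the difference in mean log2(RPKM + 1), Cited1-positive minus Cited1-negative, over 11185 genes in bins of the x axis, as deposited (grey) and with the number of genes detected as a second term (purple outline), with dashed lines at -1 and 1. The grey distribution is centred at 0.27 and the purple at 0.02.

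DNA replication genes gave the largest difference among the gene groups examined. Of 16 S phase genes, 11 were higher and 0 lower by at least 1 log2 unit, against 11.7% and 0.438% of all genes. Their median was 1.46 against 0.27 over all genes. With gene number as a second term 8 were higher and 0 lower, against 3.82% and 3% of all genes. The median was then 0.96 against 0.02, and in the shared range 11 were higher. The S phase score, the mean level over the list in each cell, was 4.59 ± 1.67 (SD, n = 39) in Cited1-positive and 3.03 ± 1.53 (SD, n = 23) in Cited1-negative cells. The difference of 1.56 became 1.01 with gene number and 1.90 in the shared range. The scores overlapped, from 1.53 to 7.34 and from 0.572 to 7.09.

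Promoters of this list are shown because they hold the 8-base E2F-type motif that is known from promoters of replication genes, and E2F factors activate such genes at the entry into S phase. The letters searched, on both strands and in the 250 bases before each RefSeq start on GRCm38.p6, were TTTCCCGC, TTTCGCGC, TTTGCCGC and TTTGGCGC. Capitals mark the matches, some of which overlap, and each stretch is written in the direction of its gene.
Mcm5, chr8:75109336-75109387, plus strand: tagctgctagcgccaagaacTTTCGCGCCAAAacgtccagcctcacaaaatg
Mcm6, chr1:128359725-128359835, minus strand: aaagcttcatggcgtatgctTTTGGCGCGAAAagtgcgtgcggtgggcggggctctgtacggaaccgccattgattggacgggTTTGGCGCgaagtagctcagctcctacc
Mcm7, chr5:138172021-138172068, minus strand: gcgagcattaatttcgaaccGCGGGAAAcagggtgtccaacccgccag
Cdc6, chr11:98907993-98908040, plus strand: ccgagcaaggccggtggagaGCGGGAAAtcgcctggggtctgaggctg
In Mcm6 there were 3 matches, the nearest 39 bases before the start and the farthest beginning 110 bases before it. In Mcm7 the match was in 1 of 2 windows. The Cdc6 stretch lies before the RefSeq start but inside the gene span of the deposited table, which begins at 98907889. Of 12 S phase genes with a window, 4 held the motif (33.3%), against 1 of 15 G2 and M phase genes (6.67%) and 583 of 27025 genes overall (2.16%). Cited1 itself held it in 1 of 3 windows. Mcm4 and Gins2 had no window. These are matches of letters, and occupancy was not measured.

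Mcm4, a subunit of the helicase (gene ID 17217, chromosome 16, 15623897 to 15637400), had the largest positive difference after Cited1 itself. Its RPKM ran from 0 through a median of 86.2 to 629 in Cited1-positive cells and from 0 through 4.48 to 204 in Cited1-negative cells. It was detected in 38 of 39 cells (97.4%, exact 95% Clopper-Pearson interval 86.5% to 99.9%) against 16 of 23 (69.6%, 47.1% to 86.8%), where intervals cover counting error only. The ranges overlapped because some Cited1-negative cells reached the levels of the other set. The mean level was 6.28 ± 1.99 against 2.62 ± 2.25, a difference of 3.66, with 3.33 after gene number and 4.59 in the shared range. Without the cells high in the pseudogene it was 3.97.

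The other 5 helicase genes all lay in the same direction. Mcm6 (gene ID 17219, chromosome 1, 128331591 to 128359656), whose promoter is shown above, ran from 0 through 57 to 440 RPKM in Cited1-positive and from 0 through 8.36 to 136 RPKM in Cited1-negative cells. Its difference in level was 2.41, with 2.12 after gene number and 4.38 in the shared range. Mcm5 was detected in 30 of 39 and 10 of 23 cells and was higher by 2.45. Mcm7 and Mcm3 were higher by 2.35 and 2.09, and each remained above 1.5 after gene number (1.90 and 1.55). Mcm2 differed least, by 1.07, and by 0.59 after gene number. Counted within cells, all 6 helicase genes were detected together in 22 of 39 Cited1-positive and 5 of 23 Cited1-negative cells. At 3 or fewer of the 6 stood 2 of 39 and 11 of 23 cells. Within Cited1-positive cells, Mcm4 and Mcm6 had Spearman's rho of 0.17 and 0.14 with the level of Cited1.

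**Figure D4:**
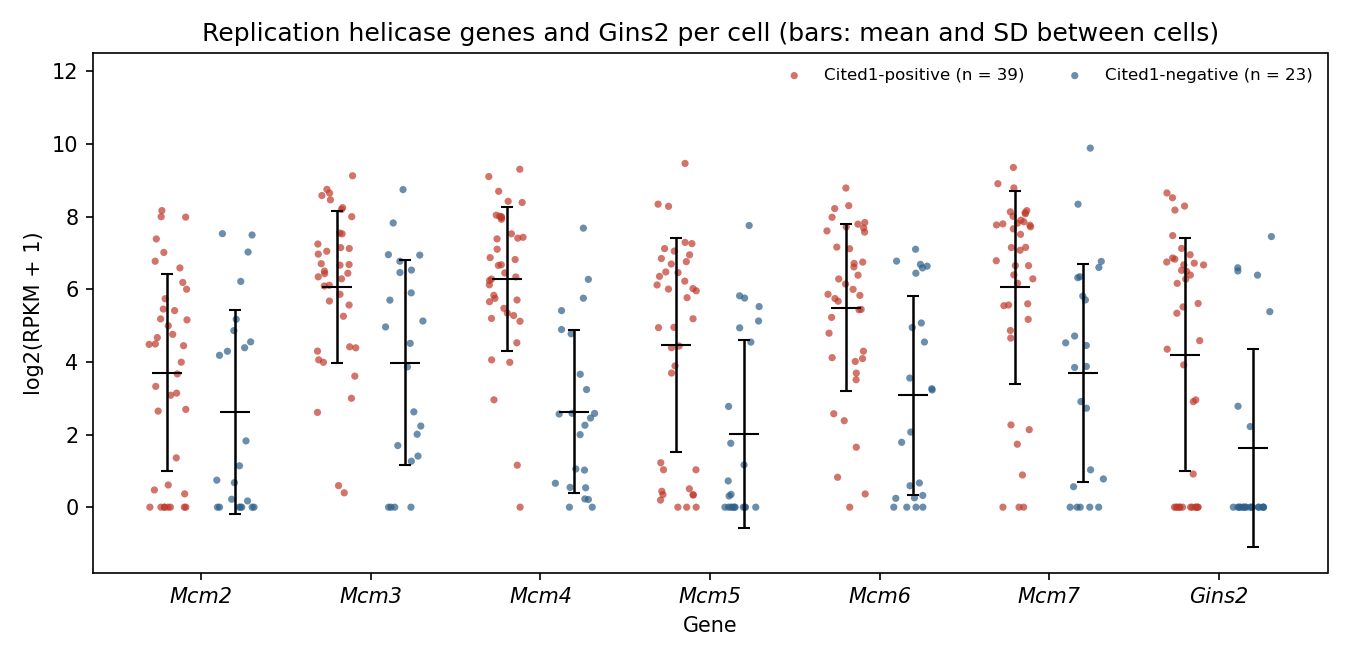
log2(RPKM + 1) of Mcm2 to Mcm7 and Gins2 in each cell, with mean and SD between cells as bars. For Mcm4 the means are 6.28 and 2.62, most Cited1-negative cells lie below the Cited1-positive mean, and zeros are more frequent among Cited1-negative cells for Mcm5 and Gins2.

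Factors that act with the helicase also differed. Cdc6, which loads it, was detected in 15 of 39 Cited1-positive cells and 1 of 23 Cited1-negative cells, with a difference in level of 1.72 and of 1.33 after gene number. Gins2, a subunit of the complex that activates it, was detected in 26 and 7 cells and was higher by 2.57 (1.66 after gene number). The Gins2 entry overlaps Gse1, and reads of the overlap cannot be assigned here. Slbp, the histone mRNA binding protein of S phase, was higher by 1.55, with 1.71 after gene number, but only by 0.31 as a log2 ratio of mean RPKM. Genes of nucleotide supply gave smaller values. Rrm2, a ribonucleotide reductase subunit, was higher by 1.37 but by 0.05 after gene number, and Tyms by 0.26 and -0.23. Pcna, the sliding clamp of the replication fork, differed by 0.89 and by 0.07 after gene number. With gene number as a second term the helicase genes thus kept more than 0.5 log2 units of their difference each while Pcna, Rrm2 and Tyms did not, although Pcna had 1.76 in the shared range.

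Genes of G2 and mitosis did not share this pattern. Of 18, 0 were higher and 0 lower by 1 log2 unit, against 11.7% and 0.438% of all genes. Their median was 0.16, and their score was 4.03 ± 2.54 against 3.83 ± 2.46. With gene number as a second term all 18 lay below 0 and the score difference was -0.94. Of them 8 were lower by 1 or more, against 3% of all genes. In the shared range all 18 were below 0 and 13 were lower by 1 or more, with a score difference of -1.32. Aurkb, a kinase of chromosome segregation, had a difference of -0.09, which was -1.94 after gene number. Mki67, a marker of cycling cells, had -0.02 and -1.11, and was detected in 26 of 39 and 17 of 23 cells. Top2a, which untangles chromosomes, was detected in 33 of 39 and 19 of 23 cells and differed by 0.13. As deposited, the levels of these genes covered the same range in both sets. The sign of the list changed with gene number, so no direction is given for it.

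**Figure D5:**
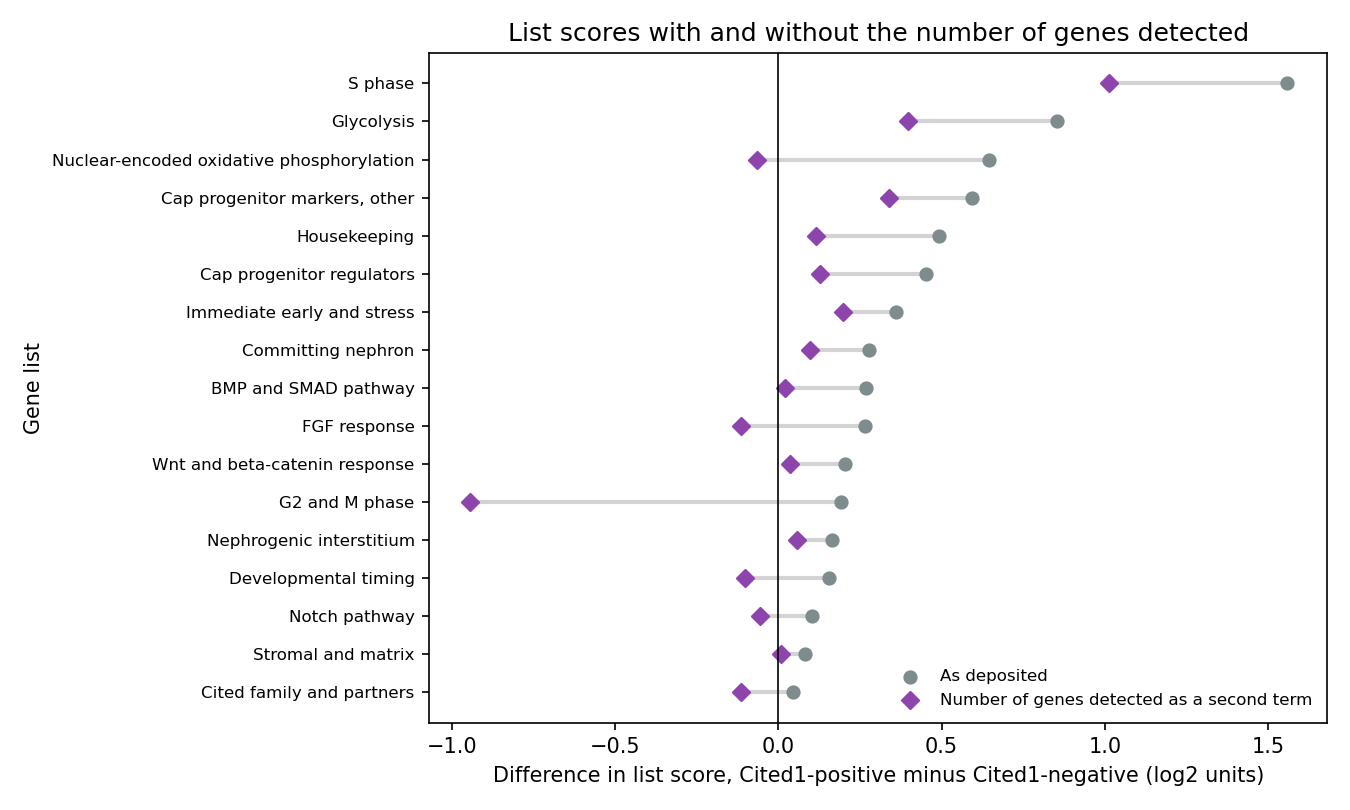
Difference in list score (mean log2(RPKM + 1) over the list), Cited1-positive minus Cited1-negative, for 17 gene lists as deposited (circles) and with the number of genes detected as a second term (diamonds). The S phase list keeps 1.01 of 1.56, while the G2 and M phase list moves from 0.19 to -0.94 and most other lists move towards 0.

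Transcription factors that regulate the cap passed 1 log2 unit about as often as all genes did. Of 15 regulators kept, 2 were higher and 0 lower by 1 log2 unit, against 11.7% and 0.438% of all genes, with a median of 0.56. With gene number 1 was higher, against 3.82% of all genes, and the median was 0.03. The medians over all genes were 0.27 and 0.02. Tcf21, a basic helix-loop-helix factor of kidney mesenchyme, was detected in 28 of 39 and 11 of 23 cells and was higher by 1.83, with 1.22 after gene number and 1.63 in the shared range. Osr1, which marks early nephrogenic mesenchyme, was higher by 1.04 and by 0.63 after gene number. Eya1, a transcriptional co-activator of the cap, had 0.58 and 0.05. Pax2, the gene mutated elsewhere in the series, was at 0.445 to 112 RPKM (median 6.38) in Cited1-positive and 0 to 120 RPKM (median 7.25) in Cited1-negative cells, a difference in level of 0.07. Wt1 differed by 0.56. Sall1, a zinc finger factor needed for ureteric bud invasion, differed by -0.28, but by -0.88 after gene number and by -1.66 in the shared range. In that range 3 of the 15 regulators were higher by 1 log2 unit and 1, Sall1, was lower. Among all 11185 genes, 979 were higher and 896 lower there. Both sets therefore carried the regulators that define the cap, at overlapping levels. Meox1, a homeobox gene, was detected in 8 of 39 Cited1-positive and 0 of 23 Cited1-negative cells, and 0 of 23 allows a share of up to 13% (3 cells taken as the limit of a count of 0, for counting error only).

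Surface, secreted and other cap markers gave a few larger values. Of 19 kept, 4 were higher and 0 lower, against 11.7% and 0.438% of all genes, with a median of 0.41. After gene number 2 were higher, against 3.82% of all genes, with a median of 0.12. Crym, a thyroid hormone binding protein known as a cap marker (gene ID 12971, chromosome 7, 120186384 to 120201988), ran from 0 through 185 to 848 RPKM in Cited1-positive and 0 through 128 to 922 RPKM in Cited1-negative cells. It was higher by 1.5, with 1.2 after gene number and 2.17 in the shared range. Without the 13 cells high in the pseudogene it was higher by only 0.36, and the part of those cells was not tested. Rspo1, a secreted enhancer of Wnt signalling, was detected in 29 of 39 and 9 of 23 cells and was higher by 1.51, with 1.22 after gene number, 2.70 in the shared range and 1.2 without those cells. Capn6 was higher by 1.46 (0.86 after gene number), and Itga8, the integrin subunit by which the cap contacts the ureteric bud, by 1.31 (0.98). Gdnf, the ligand that draws the ureteric bud, differed by 0.27 and by -0.19 after gene number. Ncam1, Cd24a and Robo2 were detected in every cell of both sets and differed by 0.39, 0.35 and 0.37.

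Genes of the committing nephron gave no direction as a group. Of 20, 11 were kept, of which 2 were higher in Cited1-positive cells and 0 lower, against 11.7% and 0.438% of all genes. The score difference was 0.28 (0.10 after gene number). In the shared range 2 were higher and 1 lower, with a median of -0.10. Pax8, a Pax2 relative of the renal vesicle, was detected in 28 of 39 and 8 of 23 cells and was higher by 1.56 (1.0 after gene number). Sfrp2, a secreted Wnt modulator, was higher by 1.56 (0.99). Wnt4, the signal of the pretubular aggregate, was at 1 RPKM or more in 38 of 39 and 23 of 23 cells, with medians of 4.04 and 3.77 RPKM. Its difference in level was -0.06, and -1.27 in the shared range. It was also at 1 RPKM or more in 68 of 71 interstitial cells, so its detection does not mark commitment here. Lhx1, Fgf8 and Hes5 were listed at 0 in all 62 cells. Jag1, a Notch ligand, was detected in 8 and 4 cells.

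The Wnt, Notch, FGF, and BMP and SMAD lists had median differences of 0.15, 0.28, 0.22 and 0.14, against 0.27 over all genes. Their counts of higher genes, which are small, stand beside 11.7% of all genes. In the Wnt list 1 of 11 was higher, Tcf7l1 by 1.41, although its value in the shared range was -0.06. Axin2, a feedback target of beta-catenin, differed by 0.31. In the FGF list 1 of 12 was higher, Fgfr2 by 1.32 (1.13 after gene number), while the response genes Etv4 and Dusp6 had -0.57 and -0.38. In the BMP and SMAD list 3 of 17 were higher. These were the receptor Bmpr1a by 1.78 (0.96 after gene number), Id3 by 1.33 (0.96) and Id1 by 1.07 (0.57, and -0.10 in the shared range). Bmp7, a ligand made by the cap, differed by -0.31. None of the 9 Notch genes kept passed 1 log2 unit. Among 10 developmental timing genes Myc was higher by 1.29 (0.60 after gene number) and Hmga2 differed by 0.14. Of the relatives and partners of Cited1, Cited2 differed by 0.07, the acetyltransferases Crebbp and Ep300 by 0.37 and -0.31, and Cited4, Tfap2b and Tfap2c were listed at 0 in all 62 cells.

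Egr1, an immediate early transcription factor (gene ID 13653), was the clearest of the stress and early response genes. It ran from 0 through 124 to 1668 RPKM in Cited1-positive and from 0 through 18.8 to 560 RPKM in Cited1-negative cells, and was detected in 38 of 39 and 17 of 23. The difference in level was 2.26, with 2.25 after gene number and 1.71 in the shared range. Fos was higher by 1.11 but had -0.60 in the shared range and -0.13 as a log2 ratio of mean RPKM, Jun differed by 0.74 and Junb by -0.55. Of 11 genes of this list 2 were higher and 0 lower, against 11.7% and 0.438% of all genes, with a score difference of 0.36.

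Values of metabolic genes depended on how gene number was considered. Of 15 glycolysis genes 6 were higher and 0 lower, against 11.7% and 0.438% of all genes, with a score difference of 0.85. It became 0.40 with gene number, 0.78 in the shared range (6 genes higher) and 0.25 without the cells high in the pseudogene. Gpi1, which isomerises glucose 6-phosphate, was higher by 1.53 and kept 1.48, and Pfkl, a phosphofructokinase subunit, was higher by 1.63 and kept 1.2. Without the cells high in the pseudogene these were 0.99 and 0.80. Tpi1, Aldoa, Hk2 and Pdk1 were higher by 1.83, 1.37, 1.30 and 1.02 and each stood below 1 with gene number. The 16 nuclear genes of oxidative phosphorylation had a score difference of 0.65 (-0.07 after gene number), with 2 higher, against 11.7% of all genes. Among 12 housekeeping genes 2 were higher, against the same 11.7% of all genes. These were Hprt by 1.69 (-0.07 as a log2 ratio of mean RPKM) and Tbp by 1.49, while Actb differed by -0.12. The housekeeping score difference of 0.49 became 0.12 with gene number.

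Apart from the interstitial and stromal lists, most defining genes of other cell types were low or at 0 in both sets. Of 10 interstitium genes kept and 7 stromal genes kept, 0 were higher and 0 lower, against 11.7% and 0.438% of all genes. Foxd1, the defining factor of the renal stroma, was detected in 16 of 39 and 7 of 23 cells with a median of 0.233 RPKM and 0. The summed interstitium list ran from 49.5 to 695 RPKM in Cited1-positive and 34.5 to 1056 RPKM in Cited1-negative cells. Its medians were 236 and 184 RPKM. The summed stromal list ran from 26.4 to 1067 RPKM in Cited1-positive and 21 to 1053 RPKM in Cited1-negative cells, with medians of 487 and 440 RPKM. Sparc, a matrix glycoprotein in this list, alone had medians of 412 and 383 RPKM. Endothelial genes were at 0 in all cells for 7 of 10, immune genes for 9 of 10 and erythroid genes for 6 of 8, and 0 tubule genes of 12 were kept. In 2 mural genes kept, Rgs5 was higher by 1.30 and was detected in 9 of 39 and 0 of 23 cells, with the same limit of 13%. None of 3 podocyte, 4 epithelial adhesion, 3 ureteric epithelium and 3 neural or glial genes kept passed 1 log2 unit.

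The 15 genes with the largest positive differences in the ranking given for Mcm4 were of mixed function. Of these, Mcm4 and Gins2 belong to the S phase list. After Mcm4 came Peg12, an imprinted gene expressed from the paternal copy (gene ID 27412, chromosome 7, 62461871 to 62464510). It ran from 0.821 through 106 to 370 RPKM in Cited1-positive and from 0 through 1.67 to 393 RPKM in Cited1-negative cells, and was detected in 38 of 39 and 13 of 23. The Cited1-negative cells thus included cells as high as any and others at 0. The difference in level was 3.02, with 2.26 after gene number and 1.80 without the cells high in the pseudogene. Tomm22, a receptor of the outer mitochondrial import pore, was higher by 2.95 (2.05 after gene number), but its log2 ratio of mean RPKM had the opposite sign (-0.10). Ppil1, a spliceosomal peptidyl-prolyl isomerase, was higher by 2.80, but by 1.37 without the cells high in the pseudogene. Fam136a was higher by 2.77, and Arl1 and Arl3, small GTPases of membrane traffic and cilia, by 2.75 each. Utp11l, Tex30, Mrps16, Rnh1, Dgcr2, Gins2, Pdhb and Slc25a17 completed the leading 15, with differences of 2.69 to 2.54. All 15 stayed at 1 or more with gene number, and 14 did so in the shared range, where Mrps16 had 0.54. Because the largest differences were picked from these cells, their size carries the choice.

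Differences in the direction of Cited1-negative cells were smaller among the leading genes. Snora81, a small nucleolar RNA whose entry overlaps Eif4a2, so that reads may be shared, had -1.71, with a median of 6.94 RPKM in Cited1-positive and 17 RPKM in Cited1-negative cells. Slc35b4, a nucleotide sugar transporter, was detected in 9 of 39 and 12 of 23 cells with a difference of -1.55 (-2.35 after gene number). Nae1, the activating enzyme of NEDD8, had -1.46 (-2.16) and Tpm1, an actin-binding tropomyosin, -1.26 (-1.95). Hoxb6, a homeobox gene of posterior body regions, was detected in 21 of 39 and 18 of 23 cells with -1.31. The others of the leading 15 were Zfp959, Ctage5, Rhno1, Snrk, Ythdf3, Slc18a2, Rbak, Scnm1, Saal1 and Uso1, of which Zfp959, Rhno1 and Uso1 overlap other entries. All 15 stayed at -1 or less with gene number and 12 did in the shared range, where Slc18a2, Hoxb6 and Saal1 did not. These genes too were picked from these cells, so their size carries the choice. Gene number as a second term also lowered the median over all genes, from 0.27 to 0.02, so staying at -1 or less with it says little.

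The E13.5 wild-type cap cells were not used by the rule and give the same quantities at an earlier age, in few cells. Of 18, 14 had Six2 at 1 RPKM or more, of which 3 were Cited1-positive and 11 Cited1-negative, with medians of 5665 and 5652 genes detected. The median difference over 10510 genes was 0.09, with 2248 genes at 1 or more and 1646 at -1 or less, so single values vary widely at this size. Mcm4 was at 98.2, 108 and 164 RPKM in the 3 Cited1-positive cells and between 0.275 and 146 RPKM in the others, and 3 of the 11 exceeded 108 RPKM. Its mean level was 6.92 against 4.21. Mcm6 had mean levels of 7.51 and 4.57, and Cdc6 was detected in 3 of 3 and 3 of 11 cells. The 16 S phase genes had a median of 1.04 with 8 at 1 or more and 1 at -1 or less, and the 18 G2 and M phase genes had a median of -0.34. Peg12 (8.17 and 5.89), Crym (6.62 and 4.18), Rspo1 (4.76 and 2.36) and Tcf21 (7.01 and 5.13) also had higher mean levels in the Cited1-positive cells. Egr1 (0.56 and 1.36), Gpi1 (5.70 and 6.83) and Id3 (5.42 and 8.04) had lower ones. Of the 15 leading higher genes of E18.5, 9 lay above 0 at E13.5, and of the 15 leading lower genes 7 lay below 0. Both counts are close to an even split. All 6 helicase genes lay above 0, from 0.67 for Mcm5 to 2.93 for Mcm6. These 6 values rest on the same 3 Cited1-positive cells and are not separate observations.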

How the data were processed

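The authors deposited 1 table of RPKM for 36186 gene entries in 237 cells. Per the submitters' processing notes, reads were aligned with TopHat to mm10; versions, gene models and counting rule are not given in the sources used here. No counts are given, so depth per cell is unknown, and genes detected stand in for it. Values were taken as log2(RPKM + 1) with Python 3.11.15 and pandas 2.3.3. A gene was detected in a cell from 1 RPKM, and kept if detected in 10% of either set's cells. A call is a difference of 1 log2 unit. The scripts were tested on simulated data. Each set is part of 1 sample, so no p-value or SE was computed. No doublet caller was used. Named genes are Cited1, Six2, members of 26 lists (335 genes, 333 with an entry) and the 15 largest differences in each direction among genes detected in 50% of the higher set, without Gm, Rik, LOC, mitochondrial, ribosomal protein and haemoglobin entries. Members and lists were chosen with earlier results of these data known. Promoter sequences are from RefSeq (GRCm38.p6).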

Additional observations from a re-analysis of the deposited data

Results flagged for a closer look

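Cells with both genes were also found outside the cap label. Of 71 cells labelled interstitial at E18.5, 16 (22.5%, exact 95% Clopper-Pearson interval 13.46% to 34%) had Six2 and Cited1 at 1 RPKM or more, with Cited1 from 8.06 to 623 RPKM and a median of 140. These 16 cells had a median of 6212 genes detected, and the 3 interstitial cells with Six2 but not Cited1 had 4518. Of the 44 E18.5 Pax2 mutant cells, 1 had Six2 at that level and 0 had both genes, which allows a share of up to 6.82% (3 cells taken as the limit of a count of 0).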

How the results depend on the processing

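Counts of higher and lower genes (1313 and 49) depended on the scale and on gene number. They were 3053 and 242 with a pseudocount of 0.1, 135 and 1 with 10, 427 and 336 with gene number as a second term, and 783 and 293 without cells at 20000 RPKM or more of the pseudogene. They were 1820 and 1150 for the log2 ratio of mean RPKM + 1, 979 and 905 among the 11863 genes kept within the cells of the shared range, and 1212 and 85 with Cited1 above 0 as the threshold. The share of higher genes among those called was 96.4%, and 61.3%, 52%, 56% and 72.8% for the ratio, the shared range, gene number and without those cells. Signs reversed for Tomm22 (-0.10), Fos (-0.13) and Hprt (-0.0666) as ratios, and for Tcf7l1 (-0.0624), Id1 (-0.10), Fos (-0.60) and Ndufv1 (-0.0689) in the shared range; the cause was not tested. Mcm4 stayed between 2.34 and 4.59, Egr1 between 1.41 and 2.71, and the S phase score difference between 0.93 and 2.07. Removing the pseudogene and rescaling was added after seeing the data. Leaving out cells with Wnt4 or Lhx1 was not run, since 1 and 0 cells remained. No paired analysis was possible because the sets hold different cells of 1 group.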

Other observations

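Families outside the lists, chosen after their values were seen, held more higher genes than the 11.7% of all genes for mitochondrial and proteasome proteins, and most of the excess in medians was absent with gene number. Of 75 mitochondrial ribosomal protein genes (Mrpl and Mrps) 23 were higher by 1 log2 unit, with a median of 0.69 that became -0.01 with gene number. Of 38 proteasome genes 13 were higher (median 0.75, and 0.15 with gene number). Of 22 genes of mitochondrial import (Tomm and Timm) 7 were higher. With gene number 5 were higher and 1 lower, against 3.82% and 3% of all genes, and the median went from 0.75 to 0.22. Cytosolic ribosomal protein genes differed little, with 2 of 77 higher and a median of 0.24. Of 384 genes on chromosome X, which carries Cited1, 50 were higher, with a median of 0.33 and of 0.06 with gene number.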
